A study of Mus musculus with 6 samples.

Results

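The cells described here were fibroblasts of the mouse aorta in which transcripts of Fmod, Dio2, Hhip and Angptl7 outnumbered those of the marker genes of the neighbouring fibroblast groups. There were 2333 of them among 60871 deposited barcodes. They were chosen by measured values, the UMI counts of each cell, where a UMI is a captured transcript counted once. A barcode entered the fibroblast gate with at least 500 detected genes, at most 20% mitochondrial UMIs and at least 1 Pdgfra UMI. Dcn, Lum, Serpinf1 and Dpt together had to reach 0.5% of its UMIs, and Acta2, Tagln, Myh11 and Cnn1 together had to stay under 1.5%. Cells with more than 1 Tbx20 UMI or more than 3 UMIs of Ifit3, Rsad2, Cxcl10 and Ifit1 were left out. Of the 11669 gated fibroblasts, a cell was a member when Fmod, Dio2, Hhip and Angptl7 summed to at least 3 UMIs and to more than either of 2 competing sums. The competing sums were C7, Penk, Cxcl14, Gdf10, Col6a5 and Steap4, and Pi16, Cd248, Has2, Pla1a and Smpd3. The members are called Fmod fibroblasts below. Their comparison groups, built with the mirrored rule, are 4195 C7 fibroblasts and 4099 Pi16 fibroblasts, and 1042 gated fibroblasts belonged to none of the 3 groups.

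The study sequenced single cells of aortic tissue on the 10x Genomics platform from 3 Best3SMKO samples of mice and 3 Best3FL/FL samples, the second being the floxed controls. Best3 encodes a member of the bestrophin chloride channel family. All 6 samples came from aortic tissue that had been rinsed in cold saline with serum, minced and dissociated. The labels state neither age nor treatment, nor which promoter drove the deletion. The barcodes told 6 libraries apart, but their suffixes matched no sample label. The genotype comparison was therefore not made, the libraries are not treated as replicates of a group, and values are given per library with their lowest, median and highest. Because the groups were set from the same counts, every difference between them is a description and no test was run.

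The matrix held 399340994 UMIs, between 51813179 and 96144873 per library. Fmod fibroblasts numbered 205 to 712 per library and their median depth was 7920 UMIs, against 7028 in C7 fibroblasts and 8100 in Pi16 fibroblasts. The library medians of the members ran from 5515.5 UMIs in library 5 to 9061 UMIs in library 4. Library 5 also had the most Scrublet doublet calls, at 11.3% of its barcodes, while the other libraries had 3.02% to 4.23%. Libraries 1, 3 and 4 held members with Xist UMIs and no Y-linked UMIs (147, 38 and 131 cells) beside members with the reverse (192, 109 and 125 cells). Libraries 2, 5 and 6 had 0 members with Xist alone among 260, 712 and 377 members. Libraries shared 414 barcode sequences, which 27 members carried, and no sequence was carried by members of more than 1 library. Intervals cover counting error only.

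The outer layer of the aorta, the adventitia, is rich in fibroblasts that lay down collagen and elastic fibre components. Fmod encodes fibromodulin, a small leucine-rich proteoglycan that binds collagen and guides fibril assembly. Hhip encodes the hedgehog-interacting protein, a membrane-bound decoy for hedgehog ligands and itself a transcriptional target of the pathway. Dio2 encodes a deiodinase that turns thyroxine into the active thyroid hormone triiodothyronine inside cells. Angptl7 encodes a secreted angiopoietin-like protein. Pi16 and Cd248 are widely used markers of progenitor-like fibroblasts found around vessels of many tissues.

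Fmod fibroblasts made up 19.99% of the gated fibroblasts (Clopper-Pearson 95% interval 19.3% to 20.7%). Over the libraries the share was lowest in library 4 at 15.3% and highest in library 6 at 30.7%, with a median of 18.4%. The interval in library 6, 28.1% to 33.4%, lay above those of the other 5 libraries. The next highest share was 22.2%, in library 5. Which genotype these libraries carried is not known here.

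Most members carried Fmod, and its companions were spread unevenly among them. At least 1 Fmod UMI was found in 92.2% of members (interval 91.0% to 93.3%), a Hhip UMI in 62.7%, a Dio2 UMI in 39.2% and an Angptl7 UMI in 24.3%. Fmod gave 64.0% of the UMIs of the 4 genes, Hhip 19.6%, Angptl7 8.8% and Dio2 7.59%. Fmod with Hhip and neither of the others was the most frequent combination, in 643 cells. All 4 genes were found in 114 cells (4.89%), and 463 cells (19.8%) showed only 1 of them, mostly Fmod alone (364 cells). Detection depends on depth, so a gene with no UMI in a cell was not shown to be silent there.

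Cells on both sides of the thresholds were compared as a description. The 65 members with a sum of exactly 3 UMIs had a median of 3085 UMIs in all and a Vegfd level of 345 CPM (the share of the gene in the summed UMIs of the cells, scaled to 1e+06). The 50 cells just outside, with a leading sum of 2, had a median of 2369 UMIs and a Vegfd level of 64.0 CPM. A larger set, 3300 gated fibroblasts, also reached 3 UMIs of the 4 genes but had as many or more UMIs of a competing sum. In 248 members the leading sum exceeded the larger competitor by 1 UMI, and in 241 cells outside it was equal to it. These bordering sets had similar Vegfd levels of 426 CPM inside and 425 CPM outside, both below the 587 CPM of all members. Sfrp2, Fbln7 and Pax1 were higher outside this border, at 1589, 540 and 92.5 CPM, against 1368.5, 463 and 68.2 CPM inside. At the border of 3 against 2 UMIs these genes were higher inside, at 882, 325 and 40.1 CPM, against 629, 160 and 16.0 CPM. Among genes called lower below, Ly6c1 was higher inside that border, at 108 CPM against 58.7 CPM. Fn1 stood at 261 CPM inside and 288 CPM outside. These sets of 65 and 50 shallow cells hold few UMIs of the weaker genes, and no intervals were computed for them.

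The genes of the rule were compared over libraries to show their levels, with nothing read from differences that the rule fixed. Fmod ran from 1319 to 1744 CPM over the libraries of Fmod fibroblasts with a median of 1526 CPM, against 209 to 437 CPM in C7 fibroblasts and 214 to 376 CPM in Pi16 fibroblasts. Hhip ran from 336 to 584 CPM in Fmod fibroblasts, against 44.5 to 108 CPM in C7 fibroblasts and 59.0 to 121 CPM in Pi16 fibroblasts. The other pair of genes varied more between libraries. Dio2 ran from 97.2 CPM in library 4 to 294 CPM in library 1 among Fmod fibroblasts, against 16.8 to 34.5 CPM in C7 fibroblasts and 42.0 to 98.4 CPM in Pi16 fibroblasts. Angptl7 ran from 108 CPM in library 6 to 365 CPM in library 4 among Fmod fibroblasts, against 3.88 to 27.6 CPM and 30.5 to 71.2 CPM in C7 and Pi16 fibroblasts. The lowest Dio2 library of Fmod fibroblasts thus fell just below the highest library of Pi16 fibroblasts, while within every library the Fmod group was above both other groups.

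**Figure D1:**
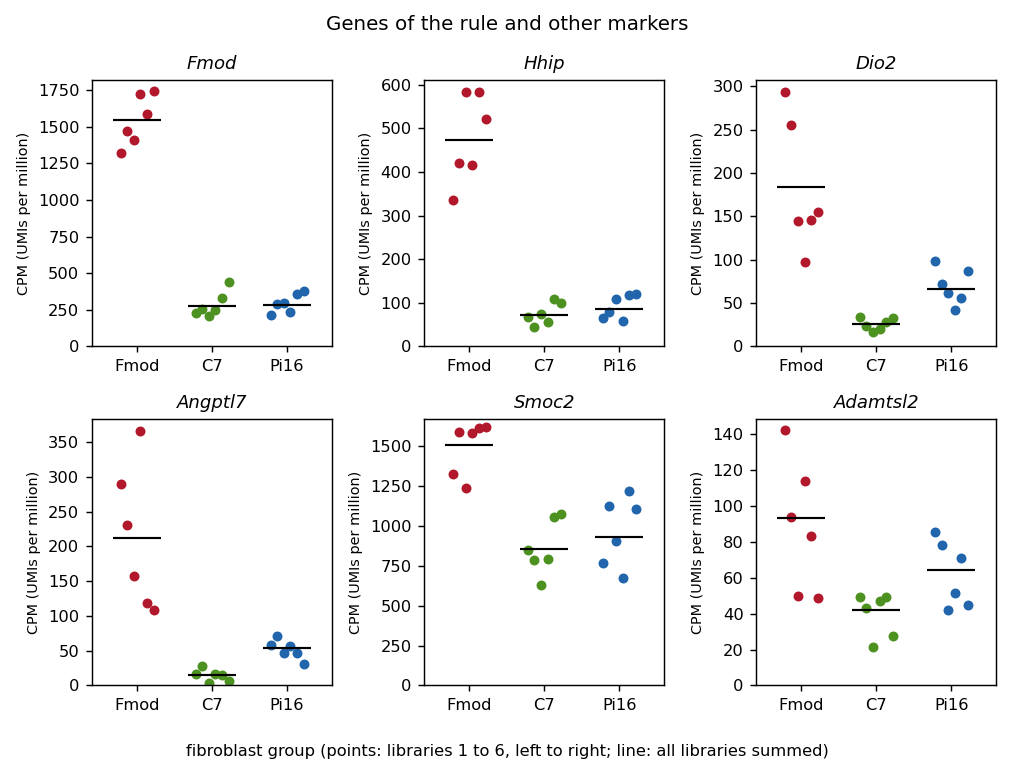
Level in CPM of 6 marker genes (panels) in Fmod, C7 and Pi16 fibroblasts, with 1 point per library and a line for all libraries summed. Fmod and Hhip separated the groups in every library by the rule, while Smoc2 and Adamtsl2, which the rule did not use, lay closer together, with library ranges that overlapped for Adamtsl2.

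Smoc2 and Adamtsl2 were named as markers of these cells but were no part of the rule. Smoc2, which encodes a SPARC-related matricellular protein, ran from 1237 to 1625 CPM over the libraries of Fmod fibroblasts with a median of 1589 CPM. It ran from 632 to 1079 CPM in C7 fibroblasts and from 677 to 1222 CPM in Pi16 fibroblasts. Adamtsl2, which encodes an ADAMTS-like protein that binds fibrillin microfibrils, ran from 48.9 to 143 CPM in Fmod fibroblasts, against 21.2 to 49.4 CPM in C7 fibroblasts and 42.0 to 85.3 CPM in Pi16 fibroblasts. Both genes were highest in Fmod fibroblasts in all 6 libraries. The margin over the nearer group was 1.62-fold for Smoc2 and 1.41-fold for Adamtsl2, under the 2-fold used below. With all members summed, both markers therefore followed the label in direction, by less than 2-fold over the nearer group. Both genes were uneven among the members, whose clusters are described below. Smoc2 was called lower in cluster 0 than in the other members of clusters 0 to 3. In clusters 0 to 3 Adamtsl2 stood at 146, 66.8, 48.8 and 155 CPM, beside 64.6 CPM in Pi16 fibroblasts.

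Of the competing genes, some stayed well detectable in the members. Pi16, a secreted peptidase inhibitor, stood at 819 CPM in Fmod fibroblasts, against 447 CPM in C7 fibroblasts and 3069 CPM in Pi16 fibroblasts. Gdf10, a TGF-beta family ligand, stood at 455 CPM in Fmod fibroblasts, against 1139.7 CPM in C7 fibroblasts and 334 CPM in Pi16 fibroblasts. Cxcl14 was at 0.976 CPM in Fmod fibroblasts, against 70.4 CPM in C7 fibroblasts and 3.15 CPM in Pi16 fibroblasts. Col6a5 was at 1.79 CPM in Fmod fibroblasts, against 73.9 and 6.56 CPM in C7 and Pi16 fibroblasts.

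The stretches before the transcription starts of the 4 genes of the rule and of Vegfd are shown because the 4 genes chose the members and Vegfd was among the genes outside the rule called higher in them. They are the 200 bases upstream of the RefSeq start (GRCm38.p6), written 5′ to 3′ on the gene's strand, with motif matches in capitals. Fmod lies at chr1:134037054-134037253 on the plus strand, Dio2 at chr12:90739039-90739238 on the minus strand and Hhip at chr8:80058009-80058208 on the minus strand. Angptl7 lies at chr4:148500463-148500662 on the minus strand and Vegfd at chrX:164373322-164373521 on the plus strand.
Fmod: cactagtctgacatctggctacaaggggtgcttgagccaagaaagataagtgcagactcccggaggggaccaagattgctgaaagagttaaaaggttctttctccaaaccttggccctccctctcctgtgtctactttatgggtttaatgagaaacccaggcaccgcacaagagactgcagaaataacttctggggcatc
Dio2: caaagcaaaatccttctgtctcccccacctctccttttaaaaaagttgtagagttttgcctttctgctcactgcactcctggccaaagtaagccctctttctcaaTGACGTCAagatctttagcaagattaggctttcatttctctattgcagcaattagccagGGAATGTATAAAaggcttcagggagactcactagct
Hhip: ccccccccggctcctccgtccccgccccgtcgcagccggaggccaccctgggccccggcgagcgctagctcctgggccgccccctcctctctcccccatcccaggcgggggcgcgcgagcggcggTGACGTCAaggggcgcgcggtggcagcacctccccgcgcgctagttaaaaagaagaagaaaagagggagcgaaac
Angptl7: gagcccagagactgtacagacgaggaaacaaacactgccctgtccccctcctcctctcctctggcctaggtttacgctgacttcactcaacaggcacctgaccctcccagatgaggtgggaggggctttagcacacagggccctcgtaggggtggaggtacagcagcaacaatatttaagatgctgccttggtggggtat
Vegfd: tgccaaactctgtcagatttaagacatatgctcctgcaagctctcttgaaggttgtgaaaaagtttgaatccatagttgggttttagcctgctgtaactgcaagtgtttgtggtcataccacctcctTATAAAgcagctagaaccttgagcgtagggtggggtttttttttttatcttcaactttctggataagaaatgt
The capitals in Dio2 and Hhip include TGACGTCA, the cAMP response element, which began 95 bases before the start of Dio2 and 75 bases before that of Hhip. This motif was added to the search after the sequences had been seen, and it occurred in 1.47% of 32851 promoter windows of the same length. Dio2 also held GGAATG, a TEAD site, directly followed by TATAAA, the TATA box, and Vegfd held a TATA box 73 bases before its start. GGAATG occurred in 10.1% of all windows and TATAAA in 9.96%. The search covered both strands and also TGANTCA (AP-1, in 5.48% of windows), GACCACCCA (GLI, 0.161%) and AGGTCA (nuclear receptor half-site, 11.4%), which these 5 windows did not hold. A match describes letters and shows no binding.

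In all, 6886 genes reached 20 CPM in at least 1 of the 3 groups, 6862 of them outside the rule. A gene was called higher when its level plus 5 CPM was at least 2 times that of C7 fibroblasts and at least 2 times that of Pi16 fibroblasts, and when it was above both in each of the 6 libraries. Calls lower used a ratio of at most 0.5 and the opposite order. There were 24 genes higher (0.349% of all genes at the level minimum), 20 of them outside the rule, and 38 genes lower (0.552%), 34 of them outside the rule. Among genes outside the rule, 10.3% were above both other groups in all 6 libraries and 7.87% below both, so most such genes differed by less than 2-fold.

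Vegfd, Ccn5 and Fbln7, which encode secreted proteins, were called higher. Vegfd, a growth factor of lymphatic vessels, had levels of 531, 487, 430.1, 801, 503 and 731 CPM in Fmod fibroblasts of libraries 1 to 6. Its range was 155 to 229 CPM in C7 fibroblasts and 176 to 285 CPM in Pi16 fibroblasts, so the groups did not overlap. The ratio to the nearer group was 2.48. Ccn5, a matricellular protein of the CCN family, ran from 485 to 985 CPM in Fmod fibroblasts, against 81.2 to 169.6 CPM in C7 fibroblasts and 252 to 399 CPM in Pi16 fibroblasts. Ccn5 was 5.58-fold the C7 group and 2.15-fold the Pi16 group, and its ratio to the Pi16 group was 1.95 without library 4, which ends the call. Fbln7, a fibulin of the extracellular matrix, ran from 510.2 to 783 CPM in Fmod fibroblasts, against 164 to 337 CPM in C7 fibroblasts and 182 to 291 CPM in Pi16 fibroblasts.

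The Wnt list of ligands and modulators had 12 genes at the level minimum. Of these, 2 were higher and none lower, beside 0.349% and 0.552% of all genes at that minimum. This list, like the others below, was written with earlier results of these data known. Sfrp2, a secreted Wnt-binding protein, ran from 1662 to 3000.3 CPM in Fmod fibroblasts with a median of 2259.7 CPM. It ran from 821 to 1428 CPM in C7 fibroblasts and from 807 to 1457 CPM in Pi16 fibroblasts, so no library overlapped. Its ratio of 2.02 to the nearer group sat at the threshold and was 1.87 without library 4, 1.82 in thinned cells and 1.81 without cells with Xist UMIs. Its call was also lost without library 3 or 6. The antisense gene Gm26771, also called higher, shares exons with Sfrp2 on the opposite strand, and its counts are uncertain for that reason. Frzb, another secreted Wnt-binding protein, ran from 30.8 to 63.6 CPM in Fmod fibroblasts, against 5.69 to 13.1 CPM and 13.8 to 25.1 CPM in C7 and Pi16 fibroblasts. Its call was lost with 20 CPM added and with a level minimum of 50 CPM. Dkk3 at 370.4 CPM and Wnt5a at 202 CPM in Fmod fibroblasts did not meet the 2-fold rule, though both were above the other groups in all 6 libraries. Sfrp4 had 376 CPM in Fmod fibroblasts, against 459 CPM in C7 fibroblasts and 1164 CPM in Pi16 fibroblasts, and did not meet it in either direction.

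Pax1 was the only transcription factor of 30 at the level minimum that was called higher, and Ebf2 the only one called lower. The shares over all genes were 0.349% higher and 0.552% lower. Pax1, a paired-box factor of the embryonic sclerotome and pharyngeal pouches, had 107, 94.5, 95.1, 119, 107 and 115 CPM in Fmod fibroblasts of libraries 1 to 6. It had 21.96 to 39.3 CPM in C7 fibroblasts and 35.7 to 53.5 CPM in Pi16 fibroblasts, and the groups did not overlap. Its highest library was 1.26-fold its lowest, close to the median of 1.36-fold over 5048 well-counted genes. Exons of the antisense gene AI646519 overlap Pax1. Ebf2 stood at 36.5 CPM in Fmod fibroblasts, against 100.4 CPM in C7 fibroblasts and 122 CPM in Pi16 fibroblasts. Nr2f2, a nuclear receptor of vein identity, had 515 CPM in Fmod fibroblasts, against 349 and 241 CPM in C7 and Pi16 fibroblasts, and did not meet the rule.

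Vipr2, Cacna1g, Pex5l, Itga1, Plxna4 and Cd200 were also called higher. Vipr2, a receptor for vasoactive intestinal peptide that signals through cAMP, ran from 66.0 to 124 CPM in Fmod fibroblasts, against 22.3 to 36.1 CPM in C7 fibroblasts and 29.7 to 45.3 CPM in Pi16 fibroblasts. It was the only called gene among 13 hormone and vasoactive receptors at the level minimum, beside 0.349% of all genes called higher. Cacna1g, the pore subunit of a T-type calcium channel, ran from 45.6 to 77.5 CPM in Fmod fibroblasts, against 11.1 to 30.1 CPM and 11.5 to 31.5 CPM in C7 and Pi16 fibroblasts. Pex5l, an accessory protein of pacemaker channels in neurons, ran from 48.1 to 75.2 CPM in Fmod fibroblasts, against 7.76 to 19.5 CPM in C7 fibroblasts and 14.8 to 35.6 CPM in Pi16 fibroblasts. Schwann-gated barcodes had 134 CPM of Pex5l, more than Fmod fibroblasts. Itga1, a collagen-binding integrin subunit, stood at 175 CPM in Fmod fibroblasts, against 68.8 and 72.0 CPM in C7 and Pi16 fibroblasts. Plxna4, a semaphorin receptor, stood at 50.8 CPM in Fmod fibroblasts, against 19.1 and 18.2 CPM in C7 and Pi16 fibroblasts. Cd200, an immune-inhibitory surface glycoprotein, stood at 326 CPM in Fmod fibroblasts, against 126 and 152 CPM in C7 and Pi16 fibroblasts. With 20 CPM added in place of 5, the ratio to the nearer group was 1.98 for Vipr2 and Pex5l, 1.96 for Cacna1g and 1.81 for Plxna4, each just under the call. Cd200 had a ratio of 1.96 with all cells thinned to 3000 UMIs and of 1.98 without cells with Xist UMIs.

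Of 18 lipid, retinoid and prostanoid genes at the level minimum, Rbp4 was higher and Aldh1a3 lower, beside 0.349% and 0.552% of all genes. Rbp4, the carrier of retinol, ran from 567 to 953 CPM in Fmod fibroblasts, against 271 to 433 CPM in C7 fibroblasts and 278 to 418 CPM in Pi16 fibroblasts. Its ratio to the nearer group was 2.20, against 1.97 in thinned cells and 1.81 without cells with Xist UMIs, which ends the call. Aldh1a3, which makes retinoic acid, ran from 5.73 to 13.7 CPM in Fmod fibroblasts, against 43.5 to 68.5 CPM and 25.7 to 59.5 CPM in C7 and Pi16 fibroblasts. Cyp26b1, which degrades retinoic acid, was singled out after its values were seen and belongs to no list. It had 36.0 CPM in Fmod fibroblasts, against 14.4 and 15.4 CPM in C7 and Pi16 fibroblasts, and its call was lost without library 1, 3, 4 or 5.

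**Figure D2:**
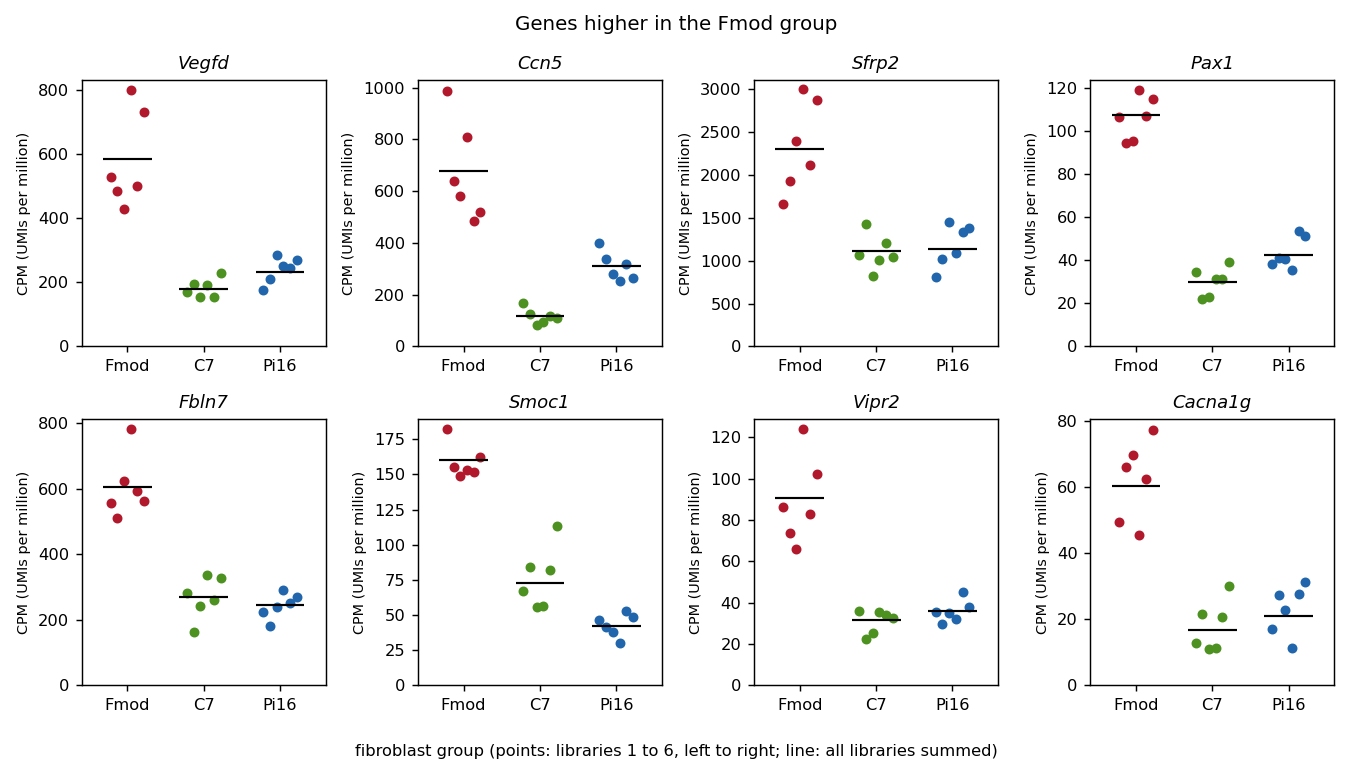
Level in CPM of 8 genes called higher (panels) in Fmod, C7 and Pi16 fibroblasts, with 1 point per library and a line for all libraries summed. In each panel the 6 Fmod points lie above all points of the other groups; Pax1 spans 94.5 to 119 CPM in Fmod fibroblasts and at most 53.5 CPM elsewhere.

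Ifi204 had the lowest ratio to the nearer group of the genes outside the rule called lower, 0.155. Ifi204, a DNA-sensing protein of the interferon-inducible PYHIN family, ran from 4.38 to 12.1 CPM in Fmod fibroblasts, against 86.2 to 153 CPM in C7 fibroblasts and 48.8 to 132 CPM in Pi16 fibroblasts. Its relatives Ifi205 at 2.33 CPM, against 77.0 and 41.1 CPM, and Ifi207 at 26.0 CPM, against 210.4 and 106 CPM, were also lower in Fmod fibroblasts than in C7 and Pi16 fibroblasts. The gate removed cells with more than 3 UMIs of other interferon-induced genes from all groups alike. Sult1e1, the oestrogen sulfotransferase, was at 1.14 CPM in Fmod fibroblasts, against 88.8 CPM in C7 fibroblasts and 19.6 CPM in Pi16 fibroblasts. Its ratio to the nearer group was 0.25, and 0.534 with 20 CPM added in place of 5, which ends the call. Plac8 stood at 11.1 CPM in Fmod fibroblasts, against 71.1 and 74.9 CPM in C7 and Pi16 fibroblasts.

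The progenitor-like list had 13 genes at the level minimum, none of them higher. Of these, 3 were lower, beside 0.552% of all genes at the level minimum. In all 6 libraries 7 were below both groups, beside 7.87% of genes outside the rule. The rule chose Pi16 fibroblasts on markers of progenitor-like fibroblasts, and the list was written with earlier results of these data known. Low levels of the list against Pi16 fibroblasts were therefore partly set by the grouping. Its median log2 ratio was -0.34 to C7 fibroblasts and -1.84 to Pi16 fibroblasts, beside 0.03 and 0.00 over all genes at the level minimum. Ly6a, a surface antigen of progenitor cells, ran from 491 to 712 CPM in Fmod fibroblasts, against 1185 to 1568 CPM in C7 fibroblasts and 1966 to 2292 CPM in Pi16 fibroblasts. Ly6c1 ran from 75.5 to 118 CPM in Fmod fibroblasts, against 258 to 393 CPM and 563 to 775 CPM in C7 and Pi16 fibroblasts. Fn1, which encodes fibronectin, had 180, 136, 156, 158, 220.4 and 163 CPM in Fmod fibroblasts of libraries 1 to 6. It ran from 358 to 921 CPM in C7 fibroblasts and from 1008 to 3948 CPM in Pi16 fibroblasts. Procr, Adgrd1 and Cadm3 were also called lower but are no part of this list. Procr, the protein C receptor, stood at 9.11 CPM in Fmod fibroblasts, against 48.8 and 117 CPM in C7 and Pi16 fibroblasts. Adgrd1, an adhesion receptor of the G protein-coupled class, stood at 13.1 CPM in Fmod fibroblasts, against 65.1 and 151 CPM in C7 and Pi16 fibroblasts. Cadm3, a cell adhesion molecule that shares exons with Ackr1, stood at 3.20 CPM in Fmod fibroblasts, against 30.6 and 62.0 CPM in C7 and Pi16 fibroblasts. Timp2, Mfap5 and Pcolce2 of the progenitor-like list did not meet the rule.

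**Figure D3:**
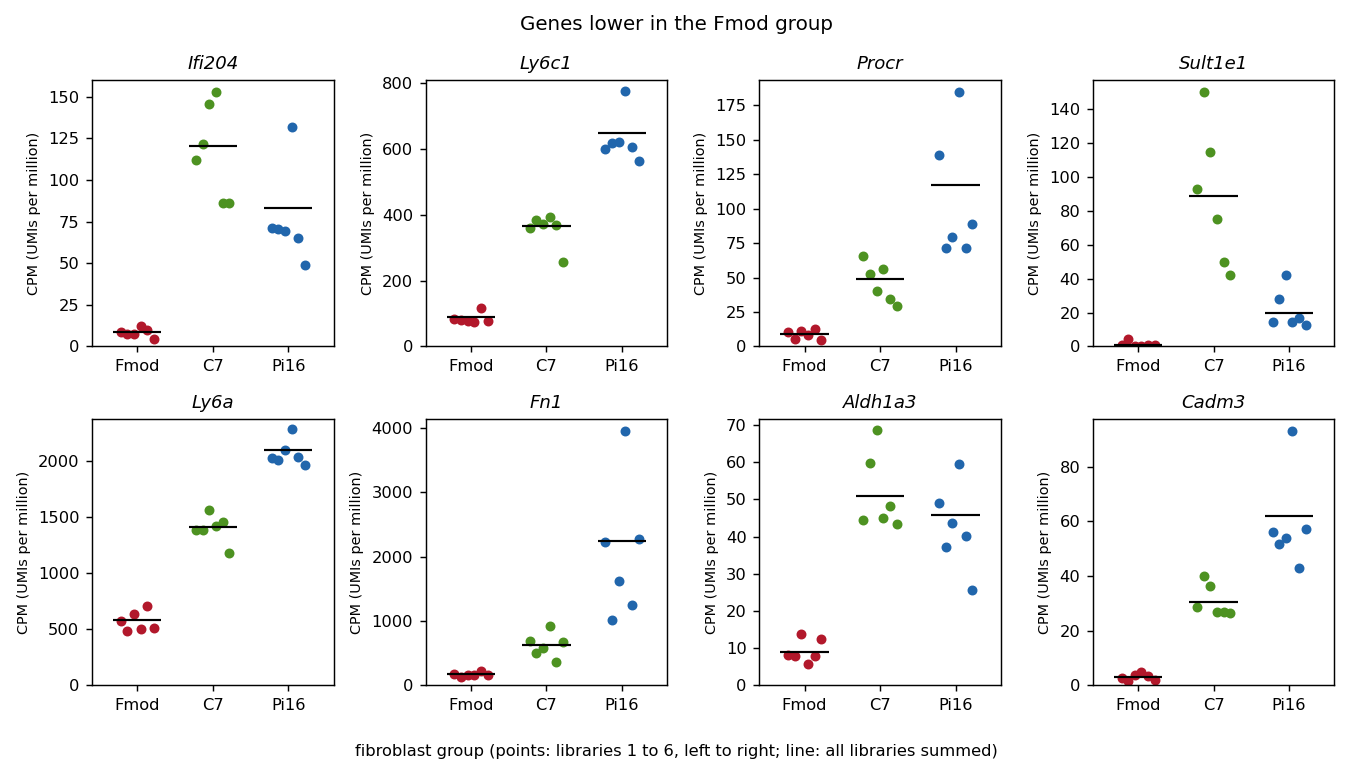
Level in CPM of 8 genes called lower (panels) in Fmod, C7 and Pi16 fibroblasts, with 1 point per library and a line for all libraries summed. All 6 Fmod points lie below the points of the other groups in each panel, as for Fn1 at 136 to 220.4 CPM in Fmod fibroblasts and at least 358 CPM elsewhere.

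Most matrix genes did not meet the rule, which 0.349% of all genes met as higher and 0.552% as lower. Of 19 collagen genes outside the rule, none met it: Col1a2 stood at 7219 CPM in Fmod fibroblasts, against 5430.1 and 5164 CPM in C7 and Pi16 fibroblasts, and Col3a1 at 1881 CPM, against 2389.8 and 2201 CPM. Of 7 small leucine-rich proteoglycan genes outside the rule, none met it. In all 6 libraries 4 of them were above both groups, beside 10.3% of genes outside the rule. Prelp had 853 CPM in Fmod fibroblasts, against 464 and 502 CPM in C7 and Pi16 fibroblasts, and Ogn had 2308 CPM, against 1724 and 1559 CPM. Among 25 elastic fibre genes, Emilin2 was lower, at 24.7 CPM in Fmod fibroblasts, against 81.0 and 164 CPM in C7 and Pi16 fibroblasts, and none was higher. Mfap4, a microfibril-associated protein, had 1584 CPM in Fmod fibroblasts, against 519.6 CPM in C7 fibroblasts and 1022 CPM in Pi16 fibroblasts. Of 22 matricellular genes, Ccn5 and Smoc1 were higher and Fn1 lower. Smoc1, the close relative of Smoc2, had 160.1 CPM in Fmod fibroblasts, against 73.1 and 42.3 CPM in C7 and Pi16 fibroblasts, a ratio of 2.11 to the nearer group that was 1.93 with 20 CPM added and 1.89 without cells with Xist UMIs. Ccn2, another CCN protein, had 1400.2 CPM in Fmod fibroblasts, against 507 and 725 CPM in C7 and Pi16 fibroblasts, a ratio of 1.92 to the nearer group.

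The pathways of Hhip and Dio2 showed no further gene past the rule. Of 8 other hedgehog pathway genes at the level minimum, none was called. Ptch1, the hedgehog receptor and a target of the pathway, was singled out after its values were seen. It ran from 59.4 to 106 CPM over libraries of Fmod fibroblasts, stood at 80.3 CPM, against 46.7 and 41.2 CPM in C7 and Pi16 fibroblasts, and was above both in all 6 libraries. Gli1, the transcription factor target that is also used as a readout of the pathway and was likewise singled out, had 50.9 CPM in Fmod fibroblasts, against 40.0 and 39.9 CPM in C7 and Pi16 fibroblasts. The co-receptor Gas1 had 1073 CPM in Fmod fibroblasts, against 1204 and 961 CPM in C7 and Pi16 fibroblasts. Boc at 184 CPM, against 183 and 136 CPM, and Smo at 80.7 CPM, against 70.4 and 64.3 CPM, were also near the other groups. Of 6 other thyroid hormone genes at the level minimum none was called. The receptor gene Thra had 157 CPM in Fmod fibroblasts, against 166 and 155 CPM in C7 and Pi16 fibroblasts, and the thyroid-responsive factor Klf9 had 914 CPM, against 969 and 850.2 CPM.

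Complement, chemokine, growth factor and BMP genes gave single calls or none, beside 0.349% of all genes higher and 0.552% lower. Of 10 complement genes outside the rule, none was called: C3 had 1273 CPM in Fmod fibroblasts, against 2852 and 2215 CPM in C7 and Pi16 fibroblasts, below both in all 6 libraries. Of 14 chemokines and cytokines outside the rule, Cxcl13, the B cell attractant, was lower at 2.66 CPM in Fmod fibroblasts, against 94.3 and 18.9 CPM in C7 and Pi16 fibroblasts. Its library range overlapped that of Pi16 fibroblasts, and its call was lost with 20 CPM added. Vegfd was the only call among 16 growth and angiogenic factors. None was called among 25 TGF-beta and BMP genes, 8 IGF genes, 13 axon guidance genes, 12 Hox genes, 27 matrix proteases and inhibitors, 13 basement membrane and adipogenic genes, and 8 airway and lung fibroblast genes outside the rule. None was called among 3 endoneurial and 5 tendon and cartilage genes outside the rule, and no perineurial gene reached the level minimum. The 23 immediate early genes, which tissue dissociation can raise, held no call: Fos had 5607 CPM in Fmod fibroblasts, against 5264 and 4165 CPM in C7 and Pi16 fibroblasts.

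The levels of these genes were graded across all gated fibroblasts. Each gated fibroblast with enough depth was thinned to 3000 UMIs and binned by the UMIs of the 4 genes left, which mixes members and other fibroblasts. With 0, 1, 2, 3 to 4, 5 to 8 and at least 9 such UMIs there were 4310, 1393, 932, 1329, 1531 and 859 cells. Over these bins Vegfd stood at 133, 195, 255, 349.6, 508 and 787 CPM. Pax1 stood at 17.7, 42.6, 51.5, 59.7, 107 and 143 CPM over the same bins. Sult1e1 ran the other way, with 80.7, 24.6, 9.66, 5.77, 3.48 and 1.16 CPM, the last from 3 UMIs. The bins share libraries and cells with the groups, so they describe the same contrast in finer steps.

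**Figure D4:**
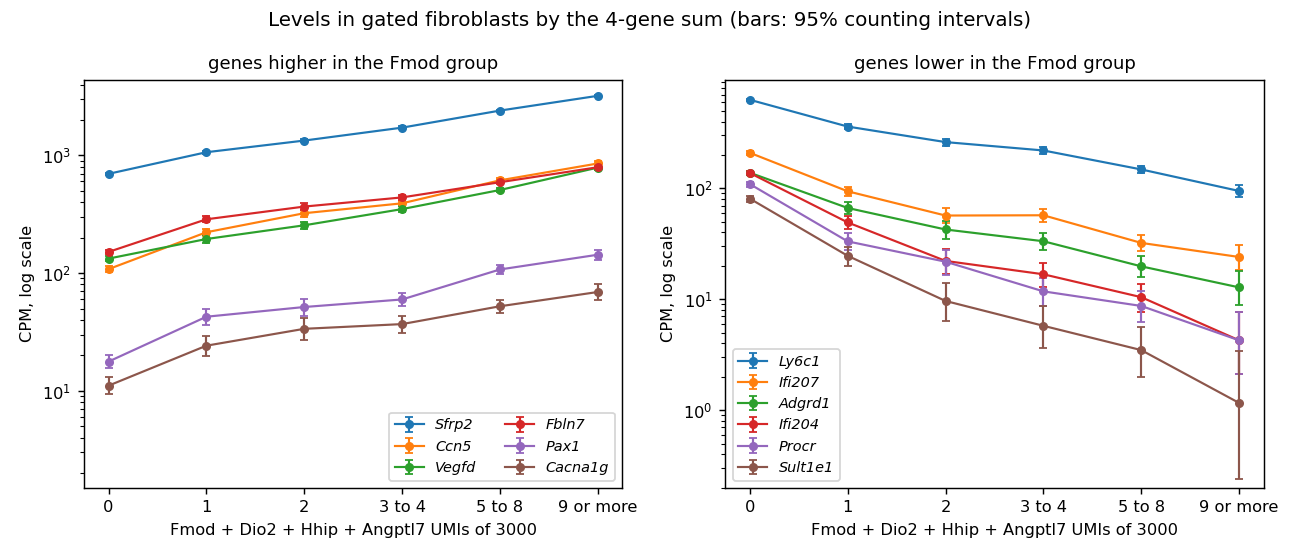
Level in CPM on a log axis of 6 genes called higher (left) and 6 called lower (right) in gated fibroblasts thinned to 3000 UMIs, by the number of Fmod, Dio2, Hhip and Angptl7 UMIs left, with exact 95% Poisson intervals. Vegfd runs from 133 to 787 CPM and Sult1e1 from 80.7 to 1.16 CPM across the bins.

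Free RNA gives every droplet some UMIs of abundant genes, so shares of cells with a UMI were set beside barcodes gated as other cells. Macrophage-gated barcodes had at least 3 UMIs of C1qa, C1qb and Csf1r together and no Pdgfra UMI. Dcn, Lum, Serpinf1 and Dpt made up under 0.5% of their UMIs. That gate left out barcodes rich in fibroblast RNA, and the rule chose members on Fmod and Dio2. The shares below thus do not measure free RNA. After thinning to 3000 UMIs, Fmod was found in 87.1% of 2179 members, against 33.7% of C7 fibroblasts, 31.3% of Pi16 fibroblasts and 2.94% of macrophage-gated barcodes, which should lack it. Before thinning these shares were 92.2% of members and 6.31% of macrophage-gated barcodes, at median depths of 7920 and 5807 UMIs. Vegfd was found in 55.0% of thinned members, 29.6% of C7 fibroblasts and 35.6% of Pi16 fibroblasts. It was found in 16.2% of thinned smooth-muscle-gated and 3.62% of thinned macrophage-gated barcodes. Dio2 was found in 27.1% of members, 4.80% of C7 fibroblasts, 13.0% of Pi16 fibroblasts and 0.539% of those macrophage-gated barcodes. Pax1 was found in 22.4%, 6.88%, 10.8% and 0.449% of the same sets. Several called genes were also abundant in other cells. Fmod fibroblasts had 748 CPM of Rbp4 and 326 CPM of Cd200, against 566 and 377 CPM in smooth-muscle-gated barcodes. Itga1 had 175 CPM in Fmod fibroblasts, against 357 CPM in endothelial-gated and 276 CPM in smooth-muscle-gated barcodes. Plxna4 had 50.8 CPM in Fmod fibroblasts, against 77.6 CPM in endothelial-gated barcodes. Smoc1 had 160.1 CPM in Fmod fibroblasts, against 129 CPM in endothelial-gated and 141 CPM in smooth-muscle-gated barcodes.

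Markers of other cells reached different levels in the members, and several were uneven between libraries. The 6 endothelial markers summed to 123 CPM in Fmod fibroblasts, against 108 and 133 CPM in C7 and Pi16 fibroblasts. The 6 macrophage markers summed to 276 CPM, ranging from 62.7 to 722 CPM over libraries, against 256 and 232 CPM in C7 and Pi16 fibroblasts. The 6 Schwann markers summed to 76.5 CPM with a range of 20.6 to 311 CPM, against 64.7 and 62.8 CPM in C7 and Pi16 fibroblasts. The 4 mesothelial markers summed to 24.8 CPM with a range of 0 to 194 CPM, against 8.20 and 3.47 CPM. The 10 smooth muscle markers, 4 of them limited by the gate, summed to 2218 CPM in Fmod fibroblasts, against 2020.3 and 1926 CPM in C7 and Pi16 fibroblasts. The 4 pericyte markers summed to 538 CPM, against 464 and 372 CPM in C7 and Pi16 fibroblasts. The 4 red cell markers summed to 52.6 CPM with a range of 2.97 to 232 CPM, against 136 and 121 CPM in C7 and Pi16 fibroblasts. The lists of T and B cells, epithelium, adipocytes, chondrocytes and muscle fibres each summed to at most 11.6 CPM in Fmod fibroblasts. The part of these transcripts in the results was not tested. Without clusters 4, 5 and 6 of the members, described next, there were 24 genes higher and 49 lower. This step removed members only, and all cells of the C7 and Pi16 groups were kept. The smooth muscle, pericyte, mesothelial and red cell transcripts were not removed by it.

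Among the members themselves, clustering on 2000 variable genes without the genes of the rule gave 7 clusters. When list and sex-linked genes were also left out, a step added after seeing the data, the best-matching clusters held 61.5%, 57.3%, 78.3% and 85.0% of the cells of clusters 0 to 3, so clusters 0 and 1 were only partly recovered. Clusters 0, 1 and 2 held 684, 668 and 664 cells from all 6 libraries, and cluster 3 held 187 cells. Clusters 4, 5 and 6, with 60, 52 and 18 cells (5.57% of members), were led by genes of other cells. Cluster 4 was led by the endothelial or lymphatic genes Nts, Mmrn1, Ccl21a, Vwf and Ptprb, and cluster 5 by Igha, Igkc, Jchain, Cd74 and C1qa of plasma cells and macrophages. The leading genes of cluster 6 included Spp1, Apod, Kcna1 and Mbp, which encodes a myelin protein. Scrublet called 63.3%, 80.8% and 22.2% of the cells of clusters 4, 5 and 6 doublets, against 2.78%, 0.15%, 0.301% and 0% in clusters 0 to 3. Each cluster of the larger 4 was compared with the rest of those 4 by the same 2-fold rule. Since clustering used these genes, the differences describe the clusters and test nothing, and no cluster is given a cell type name.

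Cluster 0 had 80 genes higher (1.19% of genes at the level minimum) and 66 lower (0.98%). Lamc3, a laminin chain, stood at 174 CPM in cluster 0, against 17.7 CPM in the other members. Tnfrsf11b, the decoy receptor osteoprotegerin, Ahsg and Fetub, a pair of fetuins, and Cytl1, a secreted protein of cartilage, were its other leading genes. Cytl1 stood at 726 CPM in cluster 0, against 131 CPM in the other members. It was higher still, at 1108 CPM, in cluster 4, which was led by endothelial or lymphatic genes. Of 5 tendon and cartilage genes, Sox9, Prg4 and Cytl1 were higher in cluster 0 and none was lower. Of 11 Hox genes, Hoxa7, Hoxb8, Hoxc6 and Hoxc8 were lower and none was higher. Of 11 Wnt genes, Frzb and Rspo3 were higher and Sfrp1, Sfrp2, Sfrp4 and Rspo1 lower. The endothelial marker Pecam1 was called higher in cluster 0. Pericyte markers summed to 751 CPM there, against 450 CPM in the other members, with no gene called. Smooth muscle markers outside the rule summed to 1010 CPM, against 758 CPM, also with no gene called. The part of these transcripts in cluster 0 was not tested.

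Cluster 1 had 30 genes higher (0.45%) and 35 lower (0.525%). Nkain4 led, at 93.1 CPM in cluster 1, against 8.73 CPM in the other members, followed by Lbp, Sparcl1, Apod and Igfbp6. Igfbp6, which binds IGF-II preferentially, stood at 1689.8 CPM in cluster 1, against 527 CPM in the other members. Ly6a was higher here than in the other members, and so were Meox2, Ebf2 and Klf5 among 27 transcription factors. The mesothelial genes Upk3b and Msln, chosen after their values were seen, had 56.5 and 24.0 CPM in cluster 1 and at most 0.35 and 0.19 CPM in clusters 0, 2 and 3. The part of mesothelial transcripts in cluster 1 was not tested.

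Cluster 2 had 27 genes higher (0.404%) and 57 lower (0.854%). Col12a1, a fibril-associated collagen, stood at 159.6 CPM in cluster 2, against 40.7 CPM in the other members, and Thbs2 at 353 CPM, against 101 CPM. Lrrn1 and Cyp26b1 came next, and the fifth gene was Vegfd, at 1061 CPM in cluster 2, against 393 CPM in the other members. Pax1, Ccn5 and Sfrp2 were also higher in cluster 2. These 4 genes thus stood out both between the members and the other groups and within the members. Vegfd was higher still in cluster 3, as given below. Ccn5 stood at 505, 332, 1183 and 883 CPM in clusters 0 to 3, beside 312 CPM in Pi16 fibroblasts. C3 and C4b were higher in cluster 2 among 10 complement genes, and Comp, Prg4 and Cytl1 were lower among 5 tendon and cartilage genes.

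The genes of the rule were left out of the clustering, so their levels were not used to form the clusters. All members were still chosen on the sum of the 4 genes, so a cell low in Fmod needed UMIs of the others. Contrasts between the 4 genes over clusters were therefore partly set by the rule. Fmod stood at 921, 1521, 2282 and 2011 CPM in clusters 0, 1, 2 and 3. Its library ranges were 794 to 1025 CPM in cluster 0 and 1948 to 2525 CPM in cluster 2, which did not overlap, while cluster 3, at 1882 to 2104 CPM, overlapped cluster 2. Dio2 was instead highest in cluster 0, with 365 CPM there, against 91.1, 109 and 96.7 CPM in clusters 1, 2 and 3. Its library ranges of 179 to 539 CPM in cluster 0 and 33.9 to 218 CPM in cluster 1 overlapped. Hhip was highest in cluster 1 at 676 CPM, against 474, 368 and 390.0 CPM in clusters 0, 2 and 3, with library ranges of 505 to 849 CPM in cluster 1 and 342 to 577 CPM in cluster 0 that overlapped. Angptl7 stood at 428 CPM in cluster 3, against 137, 211 and 197 CPM in clusters 0, 1 and 2, and at 1146 CPM in the 18 cells of cluster 6. Libraries 1 and 4, which gave nearly all of cluster 3, also had the highest Angptl7 levels of all members, 290.1 and 365 CPM. Over libraries Angptl7 ran from 377 to 503 CPM in cluster 3, overlapping the 8.31 to 458 CPM of cluster 1.

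Cluster 3 came almost wholly from libraries 1 and 4, with 86 and 88 of its 187 cells, and had 0 cells in library 2. Its leading gene was Xist, at 637 CPM in cluster 3, against 75.6 CPM in the other members, so sex-linked transcripts moved with it. Gm19522, Tmem52, Flt1 and Pcsk6 followed. Vegfd stood at 1132 CPM and Adamtsl2 at 155 CPM in cluster 3. Within library 4, members with Xist UMIs alone had 539 CPM of Angptl7, against 151 CPM in members with Y-linked UMIs alone, and within library 1 the values were 357 and 297 CPM. Within library 1, Dio2 stood at 130 CPM in Xist-only members, against 395 CPM in members with Y-linked UMIs alone, and within libraries 3 and 4 at 67.2 and 77.2 CPM, against 184 and 129 CPM. Adamtsl2 in Xist-only members of libraries 1, 3 and 4 stood at 203, 110 and 167 CPM. Members with Y-linked UMIs alone had 103, 45.7 and 49.5 CPM in the same libraries. Sex and animal cannot be told apart here.

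**Figure D5:**
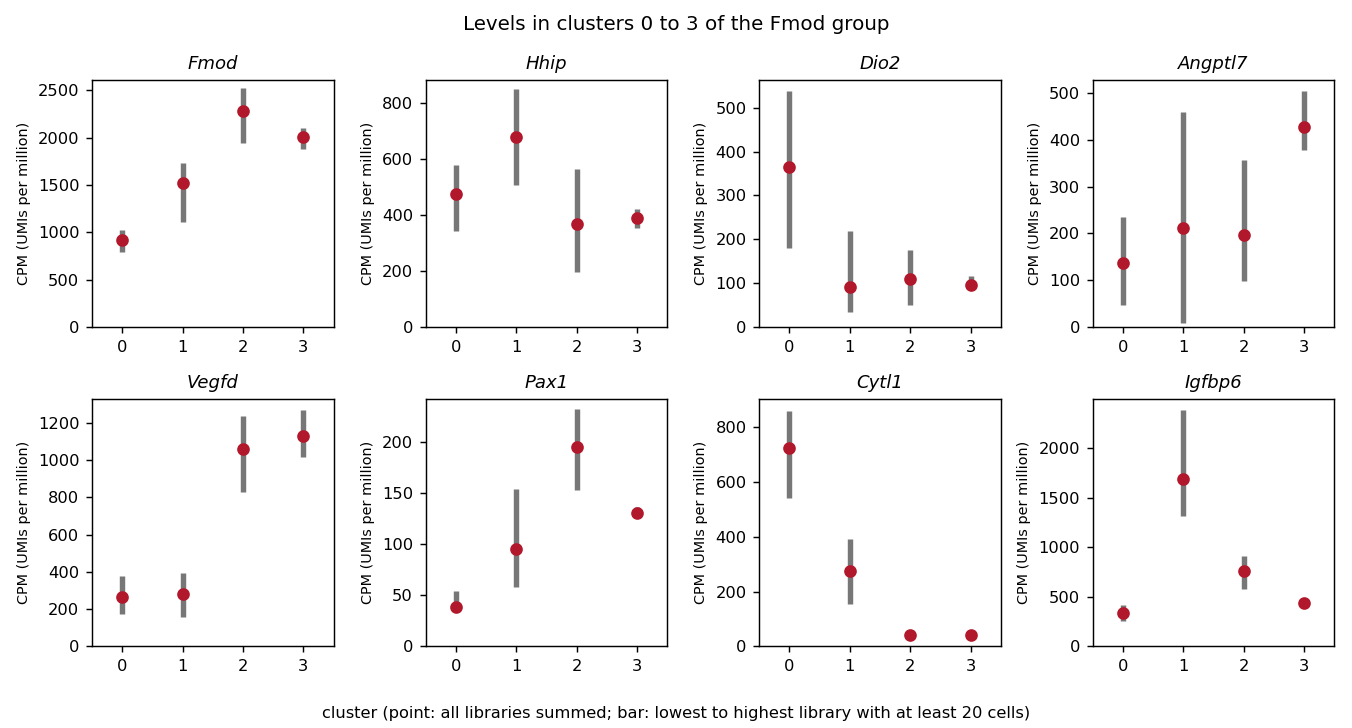
Level in CPM of 8 genes (panels) in clusters 0 to 3 of Fmod fibroblasts, with a point for all libraries summed and a bar from the lowest to the highest library with at least 20 cells. Fmod, Vegfd and Pax1 are lowest in cluster 0, where Dio2 and Cytl1 are highest, and Igfbp6 is highest in cluster 1 at 1689.8 CPM.

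Between libraries, the widest spread among members was in genes outside the rule. Apod, a lipid-binding secreted protein, ran from 189.7 CPM in library 6 to 1265 CPM in library 1, a 6.67-fold range. The 18 cells of cluster 6 had 34728 CPM of Apod, and libraries 5 and 6 had none of these cells. Mir6236, Gm42418 and Lars2, whose annotated loci collect reads of ribosomal or mitochondrial RNA in many libraries, ranged 6.65-, 6.19- and 4.88-fold. Trf, the gene of transferrin, ranged 5.99-fold with its highest level in library 2, and the circadian gene Dbp 4.59-fold with its highest level in library 4. By contrast Smoc1, Pax1 and Fmod ranged 1.22-, 1.26- and 1.32-fold.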

How the data were processed

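Per the submitters' processing notes, the authors used bcl2fastq 5.01, Cell Ranger 3.1.0 and Seurat 3.1.1 with GRCm38, while the file header names cellranger 6.1.2. The deposited matrix holds whole-number UMI counts, 55450 genes by 60871 barcodes, with no normalization. No deposited column ties barcodes to samples, so libraries are the barcode suffixes, no test was run and genotypes were not compared. Counts were summed per group and library and scaled to CPM. Calls needed at least 20 CPM in any group, 5 CPM added, a factor of 2 and the same order in 6 libraries. Named were the genes of the rule and markers, up to 15 called higher at 50 CPM or more and the 10 called lower with the most extreme ratio to the nearer group, per list up to 4 that met the rule and 3 that did not by level, the 6 with the widest library spread and 5 leading genes per cluster. Others are said to be chosen after their values were seen. Members and lists were chosen with earlier results of these data known. Doublets were called per library with Scrublet in scanpy 1.11.5 and kept, with an alternative that removed them. Members were clustered by Leiden (leidenalg 0.10.2, 30 components, 20 neighbours, resolution 0.5). The calling step was tested on simulated data. Intervals are exact at 95% and cover counting error only. Some genes that this rule names are not reported here.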

Additional observations from a re-analysis of the deposited data

How the results depend on the processing

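No paired analysis was possible because barcodes are tied to no sample, so the replicate numbers of the labels could not be attached to libraries. Requiring the leading sum to be at least 3 times the others left 622 members, with 68 genes higher and 61 lower. Adding 20 CPM in place of 5 gave 12 higher and 25 lower. A factor of 1.5 gave 105 higher and 107 lower, and a factor of 3 gave 3 and 14, by construction of the rule. Leaving out each library in turn gave 1621 to 2128 members, 19 to 27 genes higher and 34 to 43 lower. Under the other settings run, the counts stayed within 1.5 times those reported. Thinning every cell to 3000 UMIs kept 18 of the 24 higher and 34 of the 38 lower genes, and leaving out cells with Xist UMIs, chosen after seeing the data, kept 17 and 33. The settings that can move a ratio gave 414 ratios of genes named for their size. Each was set beside the range of that gene's ratios over the libraries and both comparison groups. In all, 401 stayed within this range, 13 fell outside it and 0 reversed. The range is wide where the comparison groups differ. Ccn5, at 2.15 in the main setting and 3.2 under the stricter leading sum, counted as within it. Those 13 came from the stricter leading sum and from 20 CPM added. Sfrp2, Ccn5, Cd200 and Rbp4 fell below 2-fold both after thinning and without Xist cells. The cause was not tested.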
